A study of Mus musculus with 14 samples.

Results

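The 10 core genes of the circadian clock were selected by gene symbol from a liver expression table of 17552 genes. They comprised the positive arm of the clock, with Arntl, Clock and Npas2 (3 genes), and the negative arm, with Per1, Per2, Per3, Cry1, Cry2, Nr1d1 and Nr1d2 (7 genes). The data came from male Apoe-deficient mice, C57BL/6 by the labels and C57BL/6J by the study's methods, aged 8 weeks by the labels, whose lack of apolipoprotein E leaves them with high plasma cholesterol. Both groups ate a Western diet, and the erythrodiol group received with it a dose of 10 mg/kg (of body weight, by the study's methods) of erythrodiol, a triterpene alcohol of the olive. Poly-A liver RNA, pooled from a few animals per pool, was sequenced in 7 control and 7 erythrodiol libraries. The labels give 8 weeks of diet and the study's methods a longer period. Those methods give about the labelled age for the animals used, so the mice would have been older when killed. The mice were killed after a short fast, and the hour of killing was not given in the sources used here.

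The clock is a feedback loop of transcription. ARNTL (also called BMAL1), paired with CLOCK or with its relative NPAS2, binds E-boxes and switches on the Per, Cry and Nr1d genes. The PER and CRY proteins return to the nucleus and inhibit that pair, while the nuclear receptors NR1D1 and NR1D2 (REV-ERB alpha and beta) repress Arntl through elements that the ROR receptors activate. In the liver these genes cycle over the day, with Arntl and Npas2 in near antiphase to Nr1d1, and feeding and glucocorticoids also act on the hepatic loop.

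Each gene had 1 expected count per group, the sum over the 7 libraries, so the groups were compared without replicates or p-values. Intervals are at 95% and cover counting error only, not the differences between mice or pools. Group sums were 122889032 counts in the control and 124686047 with erythrodiol, and ratios were scaled by these totals. Control libraries had 34856340 to 55244294 clean reads with 64.3 to 81.4% mapped to genes, and erythrodiol libraries had 47669656 to 48058606 reads with 73.0 to 76.1%. A library therefore supplied 9.12 to 17.3% of the read pairs of the control sum and 13.9 to 14.6% of the erythrodiol sum. Apoe, the targeted gene, had 9403 control and 8293 erythrodiol counts, and whether its counts reach the altered part of the gene was not tested. The 6 hepatocyte markers summed to 100919 CPM (counts per 1000000) in the control and 99623 with erythrodiol. The albumin gene Alb supplied 80551 and 77520 of these. Of the 6 markers, 4 had a larger share of the counts with erythrodiol and 2 a smaller one.

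All 10 clock genes had a larger share of the counts with erythrodiol than in the control, beside 71.2% of the 13291 genes that reached 100 counts over both groups. The 3 period genes were the ones past a 1.5-fold difference, and no member was 1.5-fold lower. Per3 alone was past it under each of the 3 other scalings tried, for which the share of all genes was not computed. By group totals, 2.55% of all genes were past 1.5-fold higher and 3.14% past 1.5-fold lower. Past a 25% difference 4 members, the period genes and Cry2, were higher and none was lower, beside 24.4% and 8.89% of all genes, and past 2-fold there was no member in either direction, beside 0.218% and 0.549%. The median log2 ratio was 0.31 over the members and 0.16 over all genes. Since this is bulk RNA, fewer cells of a type and less RNA per cell cannot be told apart.

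**Figure D1:**
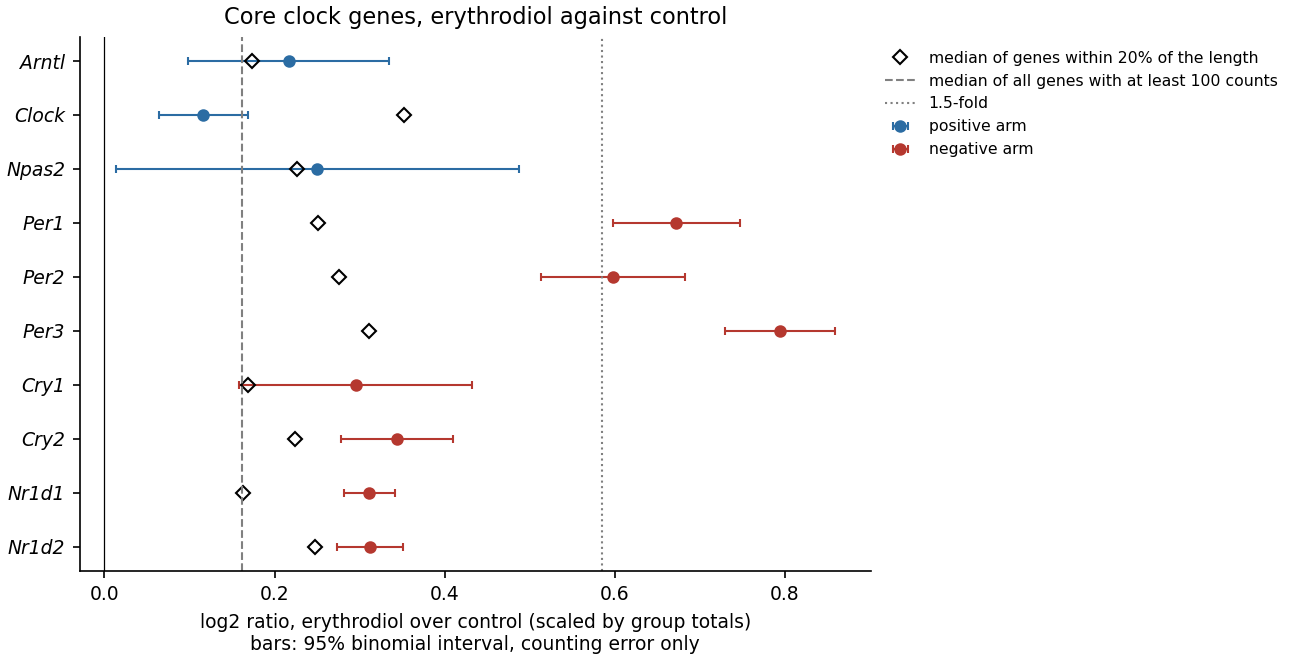
Log2 ratio of erythrodiol to control for each core clock gene (x axis) with its 95% counting interval, beside the median of genes of like length (open diamonds) and of all genes (dashed line at 0.16). Per1, Per2 and Per3 sit between 0.60 and 0.79, the other negative arm genes between 0.30 and 0.34 and the positive arm between 0.12 and 0.25.

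The ratios depended on transcript length across the whole table. In the 3323 genes with the shortest transcripts, with a median length of 1323 bases, the median log2 ratio was -0.03, and in the 3323 with the longest, with a median of 5625 bases, it was 0.29. The clock genes are mostly long, from 2782 bases for Nr1d1 to 9456 for Clock. Each was therefore set beside the median of the genes within 20% of its length. On that scale 9 of the 10 members lay above 0, against 50.8% of all genes, and their median was 0.12. None was past 1.5-fold, as were 1.08% of all genes in the higher direction.

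**Figure D2:**
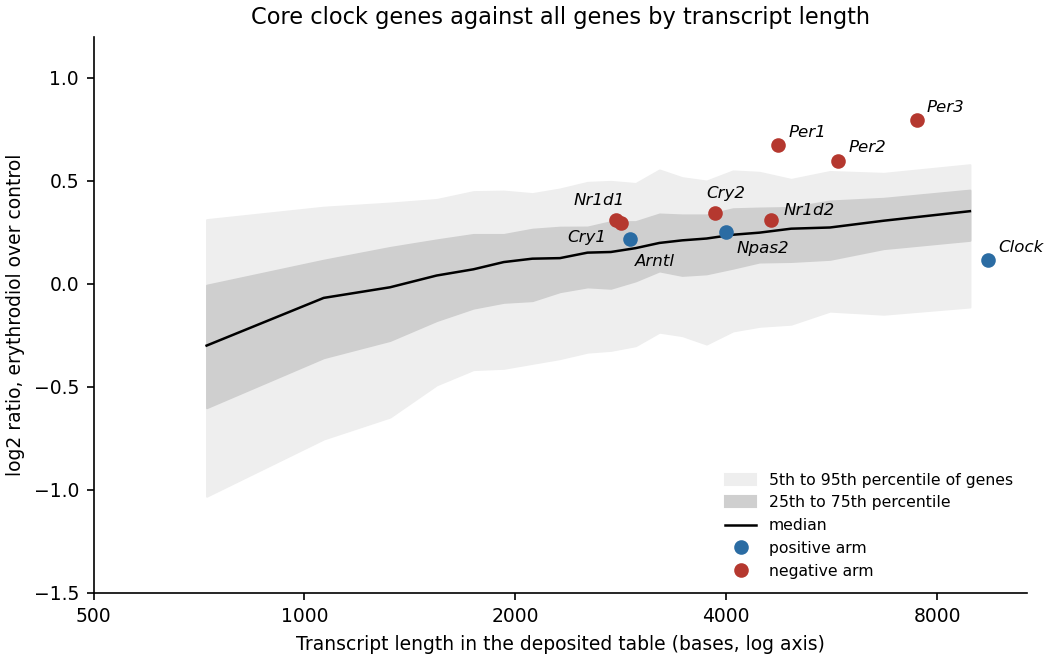
Log2 ratio of erythrodiol to control (y axis) against transcript length in bases (log x axis), with shaded percentiles over the genes with at least 100 counts and the clock genes as points. The median of the genes climbs with length; Per1, Per2 and Per3 lie above the 95th percentile band at their lengths, and Clock lies below the median line.

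The period genes encode the PER proteins, the rhythmic partners of the cryptochromes in the repressor complex. Per3, on the minus strand of chromosome 4 (GRCm38, 150997018 to 151044707), gave 3049 counts in control pools and 5364 in erythrodiol pools, or 24.8 and 43.0 CPM. This 1.73-fold difference (interval 1.66 to 1.81) was the largest among the members, and 86 of the 13291 genes, 0.647%, had a higher ratio. Per1, on the plus strand of chromosome 11 (69095108 to 69109965), had 2363 and 3820 counts, or 19.2 and 30.6 CPM, a 1.59-fold difference (1.51 to 1.68) exceeded by 174 genes, 1.31%. Per2, on the minus strand of chromosome 1 (91415977 to 91459351), had 1860 and 2856 counts, or 15.1 and 22.9 CPM, a 1.51-fold difference (1.43 to 1.61) exceeded by 310 genes, 2.33%. The lower bound for Per2 was under 1.5-fold. Above the genes of like length, the log2 ratios of Per1, Per2 and Per3 were higher by 0.42, 0.32 and 0.48, respectively. As a calculation only, the other 6 erythrodiol libraries were put at the control level, with libraries of equal size. The 1 remaining library would then need a 6.14-fold level of Per3, a 5.15-fold level of Per1 or a 4.59-fold level of Per2. These levels are by group totals and not relative to genes of like length. How the sums were spread over the libraries could not be seen.

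Within the family, the ratio of Per3 was above that of Per2 by 0.20 on the log2 scale (interval 0.09 to 0.30) and above that of Per1 by 0.12 (0.02 to 0.22). Per1 and Per2 differed by 0.07 (-0.04 to 0.19), which was within counting error. Such differences between 2 genes of the same sums need no scaling, but they are not adjusted for transcript length. Per3 has 7480 bases, Per2 5785 and Per1 4748. Relative to genes of like length their log2 ratios were 0.48, 0.32 and 0.42, and no interval was computed for differences on that scale. Each of the 21 pairs of a period gene with another member had an interval without 0, all with the period gene higher. Among the 21 pairs of the other 7 members, 4 had an interval without 0.

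The cryptochromes, the partners of PER that carry most of the repression of ARNTL and CLOCK, were higher by less. Cry1, on the minus strand of chromosome 10 (85131700 to 85185054), was counted 787 times in control and 980 times in erythrodiol pools, 1.23-fold (1.12 to 1.35). Cry2, on chromosome 2 (92403646 to 92434085), had 3291 and 4238 counts, 1.27-fold (1.21 to 1.33). The 2 ratios differed by -0.05 on the log2 scale (-0.20 to 0.10), within counting error. Relative to genes of like length they were higher by 0.13 and 0.12. Cry2 shares 4.67% of its exon bases with an antisense gene that the table does not list.

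Nr1d1 and Nr1d2, the heme-binding repressors of Arntl, had nearly the same ratio. Nr1d1, on the minus strand of chromosome 11 (98767932 to 98775377), had 15749 control and 19829 erythrodiol counts, 128 and 159 CPM, 1.24-fold (1.22 to 1.27). Nr1d2, on the minus strand of chromosome 14 (18204056 to 18239106), had 9594 and 12089 counts, 78.1 and 97.0 CPM, also 1.24-fold (1.21 to 1.28). The difference between their log2 ratios had an interval of -0.05 to 0.05. Relative to genes of like length Nr1d1 was higher by 0.15 and Nr1d2 by 0.07. Nr1d1 shares 263 exon bases, 8.55% of its own, with the thyroid hormone receptor gene Thra on the other strand, and the counting was not stated to use strand. Unless strand was used, reads from these bases cannot be assigned to Nr1d1 or Thra. Thra had 2157 and 2625 counts, a log2 ratio of 0.26.

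The positive arm had the smallest ratios. Arntl, the transcription factor without which the clock stops, lies on the plus strand of chromosome 7 (113178471 to 113314126) and gave 1085 counts in control pools and 1279 in erythrodiol pools, 1.16-fold (1.07 to 1.26). Npas2, on the plus strand of chromosome 1 (39193702 to 39363240), had the fewest counts of the members, 271 in control and 327 in erythrodiol pools, with a ratio of 1.19 (1.01 to 1.40). Clock, on the minus strand of chromosome 5 (76209868 to 76305603), had 5689 and 6257 counts, 1.08-fold (1.05 to 1.12). Arntl and Npas2 lay within 0.04 and 0.02 of the median of genes of like length on the log2 scale. Clock was below it, by 0.24. Its sign thus depended on the scaling: its log2 ratio was 0.12 by group totals, and it was above 0 in 2 of the 8 settings tried, while the other 9 members were above 0 in all 8. The 4 pairs without a period gene that lay beyond counting error were those of Clock with Cry1, Cry2, Nr1d1 and Nr1d2, with Clock lower by 0.18 to 0.23 on the log2 scale. Its difference from Npas2 was -0.13 (-0.37 to 0.10).

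The negative arm was higher relative to the positive arm with erythrodiol. The positive arm summed to 7045 control and 7863 erythrodiol counts, a log2 ratio of 0.14 (0.09 to 0.18). The negative arm summed to 36693 and 49176 counts, a log2 ratio of 0.40 (0.38 to 0.42). The count ratio of the positive to the negative arm was 0.192 in the control and 0.160 with erythrodiol. This was a difference of -0.26 on the log2 scale (-0.31 to -0.21). The ratio does not depend on scaling, but it is not adjusted for transcript length. The medians of the arms, 0.22 and 0.34, differed by -0.13. Without the period genes the negative arm had a median of 0.31, and its families had log2 ratios of 0.33 (0.28 to 0.39) for the summed cryptochromes and 0.31 (0.29 to 0.34) for the summed Nr1d genes. For the summed period genes it was 0.71 (0.66 to 0.75).

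The makeup of the negative arm differed as well. There were 0.287 period gene counts for each Nr1d count in the control and 0.377 with erythrodiol, a difference of 0.39 on the log2 scale (0.35 to 0.44). For each cryptochrome count there were 1.78 and 2.31 period gene counts, respectively, a difference of 0.37 (0.30 to 0.44). Against the positive arm, the Nr1d genes were higher by 0.17 (0.12 to 0.23) and the cryptochromes by 0.20 (0.12 to 0.27). None of these differences is adjusted for transcript length. Relative to genes of like length, the median log2 ratio was 0.42 for the period genes and 0.12 for the cryptochromes. For the Nr1d genes it was 0.11 and for the positive arm 0.02. Clock supplied 5689 of the 7045 control counts of that arm, and each pair of Arntl or Npas2 with a cryptochrome or Nr1d gene had an interval that included 0.

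**Figure D3:**
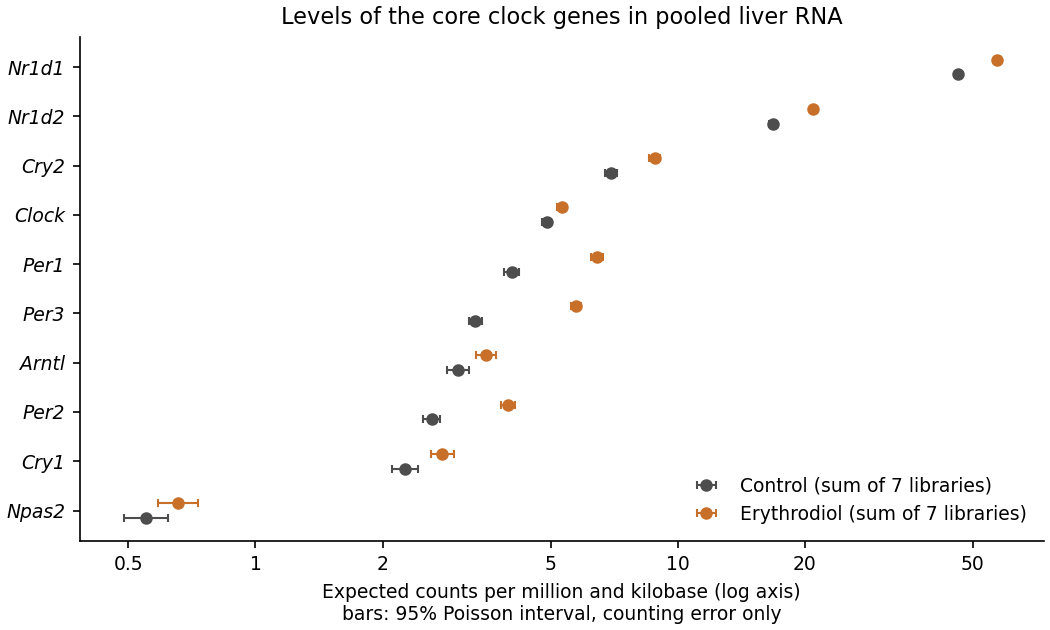
Level of each core clock gene in CPM per kilobase of transcript (log x axis) in the summed control and erythrodiol libraries, with 95% Poisson intervals for counting error. Nr1d1 is highest at 46.1 and 57.2 and Npas2 lowest at 0.551 and 0.655; the points of each period gene lie farthest apart.

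In CPM per kilobase of transcript, Nr1d1 was the most abundant member, at 46.1 in the control and 57.2 with erythrodiol, followed by Nr1d2 at 16.8 and 20.9 and Cry2 at 6.95 and 8.81. In the control, Clock came next at 4.90, then Per1 at 4.05, Per3 at 3.32, Arntl at 3.02, Per2 at 2.62, Cry1 at 2.26 and Npas2 at 0.551. Of these neighbours, Arntl and Per3 had overlapping counting intervals. With erythrodiol the order changed in the middle. Per1 at 6.45 and Per3 at 5.75 stood above Clock at 5.31, and Per2 at 3.96 stood above Arntl at 3.51, with no overlap between neighbouring intervals. The order at the ends was the same in both groups, with Cry1 at 2.77 and Npas2 at 0.655 lowest.

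The promoters of the members were read from RefSeq sequence of GRCm38.p6, from 250 bases before to 50 bases after each annotated start, to show which clock elements lie beside the genes measured here. Of the members, 9 had 13 such windows, and Per2 had none in the table. Per1 and Per3 are shown since they had the largest ratios, Cry1 since it holds an E-box with a smaller ratio, and Arntl for its ROR motif. Positions count from the start of transcription, and sequences run 5′ to 3′ on the strand of the gene. Per1 is chr11:69098699-69098947, plus strand, positions -250 to -2 of a start inside the longest form of the gene, with the E-box CACGTG, the ROR motif AGGTCA read on the other strand, and the D-box TTATGNAA in capitals. Per3 is chr4:151044716-151044915, minus strand, positions -250 to -51, with both D-boxes in capitals. Cry1 is chr10:85185066-85185304, minus strand, positions -250 to -12, with the E-box in capitals. Arntl is chr7:113207530-113207559, plus strand, in the first exon of a transcript, positions 20 to 49, with the ROR motif in capitals.
Per1: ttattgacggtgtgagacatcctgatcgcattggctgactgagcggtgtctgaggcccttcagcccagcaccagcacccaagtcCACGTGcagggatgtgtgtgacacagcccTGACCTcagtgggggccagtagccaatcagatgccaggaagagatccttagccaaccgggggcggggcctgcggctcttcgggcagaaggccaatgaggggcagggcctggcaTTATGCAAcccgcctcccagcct
Per3: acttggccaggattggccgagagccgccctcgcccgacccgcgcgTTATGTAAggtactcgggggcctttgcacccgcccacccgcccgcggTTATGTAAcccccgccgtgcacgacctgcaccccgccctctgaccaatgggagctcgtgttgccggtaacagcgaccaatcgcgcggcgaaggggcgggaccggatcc
Cry1: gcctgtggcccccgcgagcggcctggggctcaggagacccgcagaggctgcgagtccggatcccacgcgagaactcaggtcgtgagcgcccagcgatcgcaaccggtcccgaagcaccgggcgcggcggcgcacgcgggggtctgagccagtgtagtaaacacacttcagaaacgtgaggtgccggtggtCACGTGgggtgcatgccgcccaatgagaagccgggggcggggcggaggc
Arntl: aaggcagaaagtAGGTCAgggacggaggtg

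An E-box is the site of ARNTL with CLOCK, a D-box that of DBP and its relatives and of the repressor NFIL3, and the ROR motif is part of the element that ROR and NR1D receptors share. On either strand, CACGTG was found in the windows of Per1 (-166 to -161) and Cry1 (-60 to -55), and in 7.15% of 32851 promoters. TTATGNAA was found in Per1 (-24 to -17) and at 2 places in Per3 (-205 to -198 and -158 to -151), and in 3.38% of promoters. AGGTCA was found in Per1 (-137 to -132), in Arntl (32 to 37), in Clock (-119 to -114) and in Nr1d2 (-77 to -72), and in 16.3% of promoters. The cAMP element TGACGTCA was found in no window of the members and in 1.79% of promoters. None of these motifs overlapped another in the windows of the members. Npas2, Cry2 and Nr1d1 and the further starts of Arntl, Clock and Per1 had no match. A match describes letters only, and its absence says nothing of the factor.

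**Figure D4:**
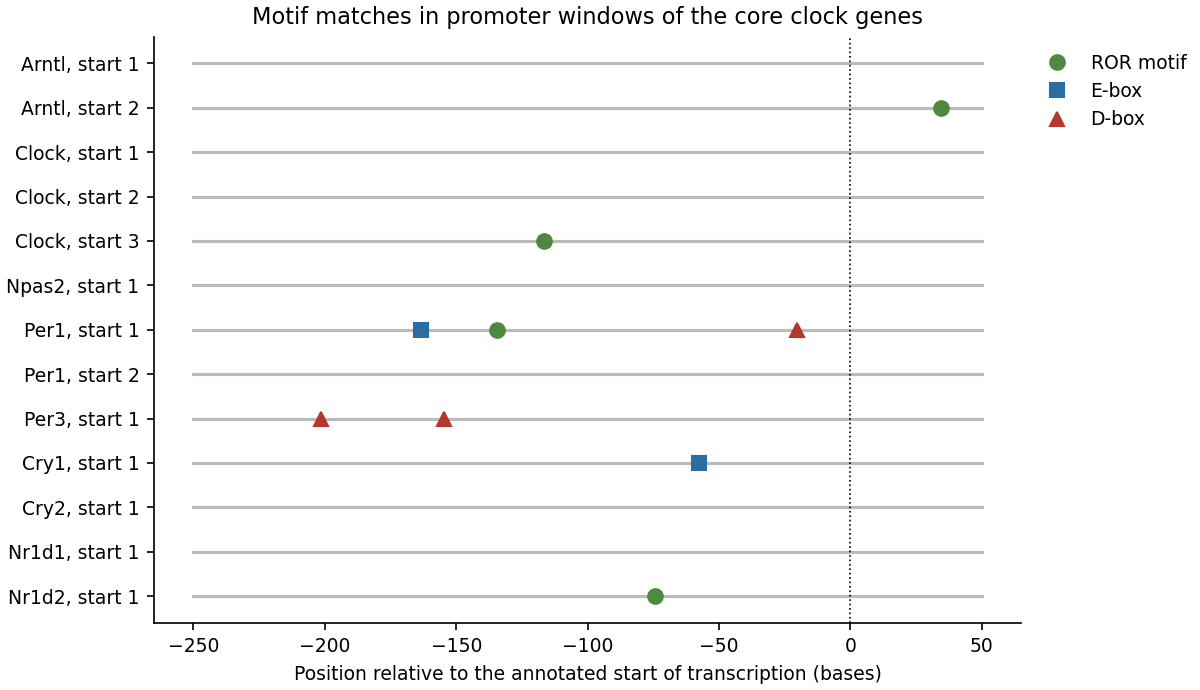
Matches of the E-box, D-box and ROR motif (symbols) along the 13 promoter windows of the core clock genes (x axis, bases relative to the start of transcription; 1 line per annotated start). Per1 holds all 3 motifs, Per3 holds 2 D-boxes, and Cry1 holds an E-box.

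The authors' assembly added 14 coding transcripts to 6 of the members, all libraries together and not by group. Arntl had 5, Per3 had 3, Clock and Per1 had 2 each, and Per2 and Nr1d2 had 1 each, with 7 to 23 exons. Of these, 8 held an intron that the GENCODE annotation lacks. Cry1, Cry2, Npas2 and Nr1d1 had none. Of the genes with at least 100 counts, 35.8% had such a transcript, against 60% of the members. None of the 16 splicing events in the deposited list lay in a member.

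Around the loop, the clock output factors are the transcription factors through which the oscillator drives other genes. All 7 of them had log2 ratios above 0, beside 71.2% of all genes. Their median log2 ratio was 0.44, against 0.16 over all genes, and 0.26 above genes of like length. Of these 7, 1 was past 1.5-fold higher, beside 2.55% of all genes, and 0 were past 1.5-fold lower, beside 3.14%. Ciart, a repressor of ARNTL and CLOCK, was counted 404 times in control and 771 times in erythrodiol pools, 1.88-fold (1.67 to 2.13). Dbp, the D-box activator, had 7353 and 10582 counts, 1.42-fold, and Nfil3, which competes with it, had 2606 and 3495, 1.32-fold. Tef and Hlf, relatives of Dbp, and Bhlhe40, a repressor at E-boxes, had log2 ratios of 0.50, 0.44 and 0.40. Bhlhe41, a relative of Bhlhe40, had 0.16 (-0.02 to 0.33), which was 0.13 below genes of like length.

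Among 34 clock regulators, 33 had at least 100 counts. Rorb was at 1 count in the control and 0 with erythrodiol. The median log2 ratio of the 33 was 0.30, and 0.09 above genes of like length. Past 1.5-fold, 1 was higher, beside 2.55% of all genes, and 0 were lower, beside 3.14%. The 1 higher gene was Usp2, a deubiquitinase that acts on clock proteins and cycles itself. It had 1289 control and 2693 erythrodiol counts, 2.06-fold (1.93 to 2.20). Rora, an activator of Arntl, had a log2 ratio of 0.38. The casein kinases that phosphorylate PER were at 0.30 for Csnk1d and 0.25 for Csnk1e. Relative to genes of like length, Rora was higher by 0.02, Csnk1d by 0.08 and Csnk1e by 0.09.

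Of 14 genes known to follow the clock or daily signals in liver, 11 had a ratio above 0, beside 71.2% of all genes, and 7 were past 1.5-fold higher, beside 2.55%, with none past 1.5-fold lower. Under each of the 3 other scalings and relative to genes of like length there were 4, without Lpin1, Alas1 and Por. Relative to like length 1.08% of all genes were past 1.5-fold higher, and the share under the other scalings was not computed. Their median log2 ratio was 0.52, or 0.32 above genes of like length. Noct, a rhythmic phosphatase, had 1237 control and 3128 erythrodiol counts, 2.49-fold (2.33 to 2.66). Cyp7a1, the rate-limiting enzyme of bile acid synthesis, had 11875 and 28636 counts, 2.38-fold (2.33 to 2.43). Usp2, which is in the list of regulators too, was next. Hspa1b, a heat shock protein, had 1210 and 2198 counts, 1.79-fold (1.67 to 1.92). Lpin1, the phosphatidate phosphatase, and Alas1, the first enzyme of heme synthesis, were both 1.61-fold higher, and Por, the electron donor of cytochromes P450, was 1.54-fold higher. Of the 3 genes below 0, named after their values were seen, the cold-inducible RNA-binding protein genes Rbm3 and Cirbp had log2 ratios of -0.36 and -0.03, and the fatty acid elongase gene Elovl3 had -0.05.

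**Figure D5:**
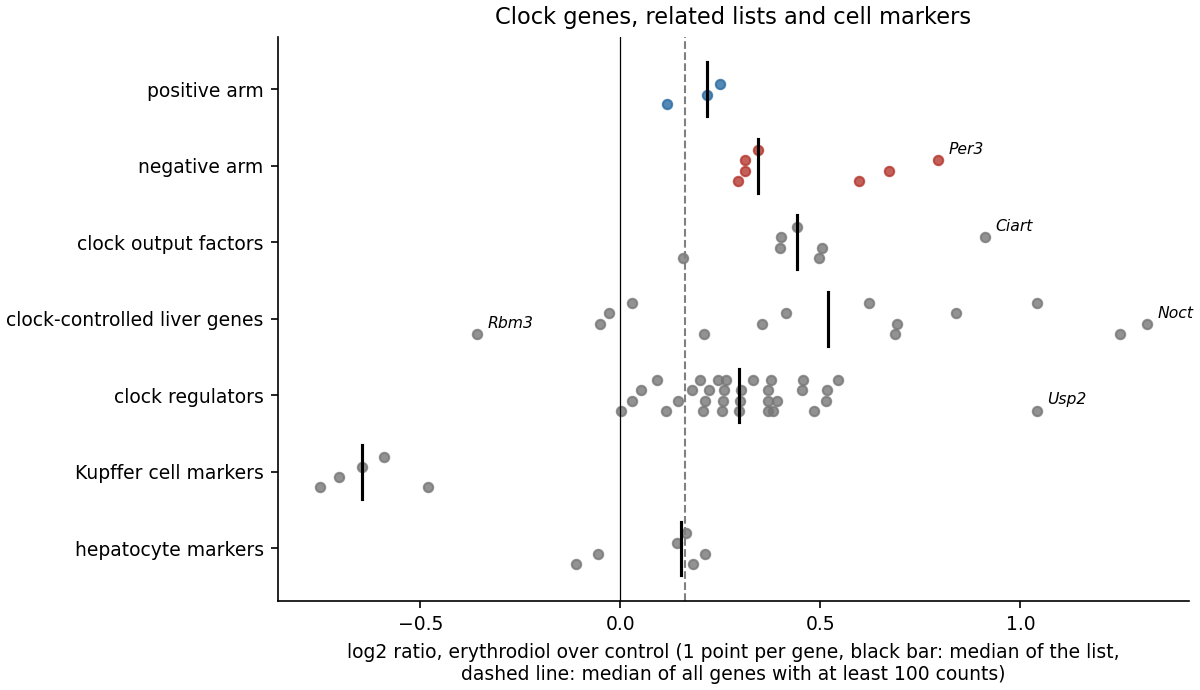
Log2 ratio of erythrodiol to control (x axis) for the arms of the clock, related gene lists and 2 lists of cell markers, 1 point per gene with at least 100 counts and a bar at each median. The medians run from 0.22 in the positive arm to 0.52 in the clock-controlled liver genes, with -0.65 for Kupffer cell markers and 0.15 for hepatocyte markers.

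The deposited annotation named circadian rhythm for 110 genes, including the 10 members. Of the 100 that were not members, 83 had at least 100 counts, with a median log2 ratio of 0.25, or 0.05 above genes of like length. Noct was the 1 past 1.5-fold higher, beside 2.55% of all genes. Cldn4, a tight junction gene, was the 1 past 1.5-fold lower, beside 3.14%. It had 78 control and 29 erythrodiol counts (log2 ratio -1.45, interval -2.12 to -0.82). The median of these 83 genes lay between those of the positive and the negative arm, 0.22 and 0.34.

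Markers of other cells differed between the same sums. All 5 Kupffer cell markers were lower with erythrodiol, from 818 to 510 CPM in sum, while 71.2% of all genes were higher. Of the 5, 4 were past 1.5-fold lower, beside 3.14% of all genes. The neutrophil markers went from 12.2 to 4.55 CPM, with 3 of the 4 having at least 100 counts and these 3 lower. The 3 bile duct markers went from 6.57 to 4.34 CPM, all lower, with Krt7 within counting error (log2 ratio -0.29, -0.62 to 0.03). The median log2 ratio of the 3 neutrophil markers was -1.19, and -0.69 relative to genes of like length. On the latter scale the medians were -0.78 for Kupffer cell and -0.66 for bile duct markers. Lymphocyte markers summed to 3.44 and 3.63 CPM, endothelial markers to 107.0 and 107.1, and stellate cell markers to 340 and 310. Of the 3 endothelial markers 1 had a log2 ratio above 0 and 2 below, as did the 3 stellate cell markers. Relative to genes of like length, the median was -0.21 for endothelial, -0.25 for stellate cell and 0.16 for lymphocyte markers. Exocrine pancreas markers summed to 1.10 and 1.31, with 1 of 4 having at least 100 counts. Muscle markers summed to 0.244 and 0.0240, of which 1 was at 0. The part of these cells and of transcript length in the ratios of the clock genes was not tested.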

How the data were processed

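RNA was pooled from a few mice per pool and sequenced in 14 libraries, 7 per group, grouped by the labels. The submitters' processing notes name HISAT, StringTie, Cufflinks, GATK, Bowtie2 and RSEM. The authors deposited an expected count per gene as 1 sum per group, not normalized, and counts of clean reads and mapping rates in percent per library. The sum is shown by the mapped read pairs of the libraries, 122887639 and 124690110. The authors' own log2 ratios, p-values and q-values were not used. Coordinates are GRCm38. Whether counting used strand was not given in the sources used here.

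Counts were scaled by group totals. Ratios carry Clopper-Pearson intervals, levels Poisson intervals, and differences of log2 ratios normal intervals from the counts, all at 95%. A minimum of 100 counts was set, and 1.5-fold served as the size of a call. Genes of like length were within 20%. No test was possible with 1 value per group, and the members and lists were chosen with earlier results of these data known. Tef, Hlf, Bhlhe40, Bhlhe41 and the lower clock-controlled genes were named after their values were seen. Named genes were the members, list genes past 1.5-fold, Rora, Dbp, Nfil3, Csnk1d, Csnk1e, Thra and Apoe, and some genes of that rule are not reported here. The calculation was tested on simulated counts with counting noise only. Calculations used scipy 1.17.1, pandas 2.3.3 and numpy 2.4.6 in Python 3.11.15, figures matplotlib 3.10.9, and TMM factors edgeR 4.0.16 in R 4.3.3. Alternatives were other scalings, length windows, minimums, fold sizes and a pseudocount of 0.5.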

Additional observations from a re-analysis of the deposited data

Results flagged for a closer look

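Control replicate 3 had 64.3% of its clean reads mapped to genes, the lowest of the 7 control libraries, and its gap to the next library was 0.588 of the range of the group, past Dixon's limit at 95%. Chance puts about 1 in 20 such groups past the limit. The other library measures examined, clean reads and reads mapped to a unique gene, had no value past it. The clock gene counts are sums over the libraries, so they could not be computed without this library.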

How the results depend on the processing

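Other scalings moved every gene by 0.16 (centred on the median of all genes), 0.16 (TMM) or 0.15 (median of ratios) on the log2 scale, and so lowered the medians, without a change of sign. In that order, the median over the members was 0.15, 0.16 and 0.17, that of the positive arm 0.054, 0.060 and 0.071, and that of the negative arm 0.18, 0.19 and 0.20. Relative to genes within 20% of the length these were 0.12, 0.024 and 0.15, and the members' median was 0.13 with 10% and 0.15 with 50%. The difference between the arms, -0.13 as medians, was -0.26 from summed counts and -0.38 without Nr1d1 and Nr1d2, but -0.096 without the period genes (an alternative added after seeing the data) and -0.12 relative to like length. Of the 3 period genes past 1.5-fold, 1 remained, Per3, under each of the other scalings, and 0 relative to like length or past 2-fold, and with a pseudocount of 0.5 there were 2, without Per2. The clock-controlled genes past 1.5-fold went from 7 to 4 under each scaling and relative to like length, and to 3 past 2-fold. The genes annotated to circadian rhythm past 1.5-fold, members included, went from 5 to 3 in the same settings and to 2 past 2-fold. They were 8 with a minimum of 10 counts and 10 with none. For the other scalings, the other minimums and the pseudocount, the share of all genes past 1.5-fold was not computed. Past a 25% difference there were 14 of 33 regulators and 6 of 7 output factors, all higher, and 37 of 93 annotated genes, 35 higher and 2 lower, beside 24.4% of all genes higher and 8.89% lower, and 0 output factors were past 2-fold. With the looser E-box CACGTN, 5 members instead of 2 had a match. No paired analysis was possible because gene values are 1 sum per group, and for the same reason no library could be left out. Differences between mice could not be measured.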
